A study of Mus musculus with 18 samples.

Results

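The 10 genes described here encode 3 gut peptide hormones of the distal bowel (Pyy, Gcg and Insl5), a further pair of peptide hormones (Sst and Cck), 4 granins or granin-like proteins of secretory granules (Chga, Chgb, Scg2 and Scg5) and the enzyme that commits tryptophan to serotonin outside the brain (Tph1). They were taken by name, and each matched 1 of the 27131 rows of the deposited table. RNA carrying a polyA tail was sequenced from colon tissue of untreated C57BL/6 mice in 9 libraries labelled WT, with the genotype Hif2a +/+, and 9 labelled HIF2, from mice said to overexpress HIF2, a hypoxia-inducible transcription factor, in the colon. The altered allele is written Hif2a LFL in the sample labels and LSL in the design text. The sources used here do not give age, sex, the driver of the allele, the segment of colon or how many mice a library holds, so p-values measure the spread between libraries. Replicate numbers run from 0 to 8 in each group.

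Enteroendocrine cells are scattered hormone-secreting cells of the gut epithelium. They store peptides in dense-core granules, whose cargo is packed by granins and cut to its active form by prohormone convertases, and release them when nutrients, microbial products or mechanical stimuli reach the cell. In the colon the best known kinds are L cells, which make peptide YY, the glucagon-gene peptides and, towards the rectum, insulin-like peptide 5, and enterochromaffin cells, which make serotonin, while D cells make somatostatin. Several of the same genes, among them Scg2, Scg5, Sst, Chga and Chgb, are also used by neurons. In bulk tissue, fewer cells of a type and less RNA per cell cannot be told apart.

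Some libraries stood apart before any of these genes was considered. In HIF2 replicates 2 and 4 the HIF-responsive genes Slc11a2 (16.5 and 18.2 FPKM) and Egln3 (21.8 and 16.7 FPKM) did not exceed the WT libraries. Smooth muscle RNA, summed over 16 markers, was 1618 to 3889 FPKM (fragments scaled by transcript length and library size) in HIF2 replicates 0 to 5, 84.0 to 211 FPKM in HIF2 replicates 6 to 8, 1304 FPKM in WT replicate 3 and at most 221 FPKM in the other WT libraries. The 2 sets of HIF2 libraries were chosen by that RNA with the data known, and are called HIF2 0 to 5 and HIF2 6 to 8 below. Y-linked Ddx3y was at most 0.217 FPKM in WT replicates 5 to 8 and HIF2 replicates 3, 6, 7 and 8, and at least 19.4 FPKM elsewhere. All 3 libraries of HIF2 6 to 8 were thus in the class without Ddx3y RNA, and values within each class are given below. As a check of the tissue label, absorptive colonocyte markers and posterior Hox genes, which mark position along the gut, were summed. The Hox genes gave 32.9 to 285 FPKM. The absorptive markers gave 7874 to 12130 FPKM in WT, 4517 to 10130 FPKM in HIF2 0 to 5 and 4225 to 5800 FPKM in HIF2 6 to 8. Of these 10 markers 7 were lower in HIF2 and 0 higher in the fit used below. Small intestine markers, summed over 10 genes, gave 185.5 to 413.5 FPKM in WT and 89.9 to 211 FPKM in HIF2. Of the 9 tested, 5 were lower and 0 higher. The shares of all tested genes were 11.1% and 11%.

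In WT colon, Pyy RNA was the most abundant of the 10, with a median of 131 FPKM, followed by Insl5 at 93.4, Gcg at 70.7, Chgb at 54.1 and Chga at 35.6 FPKM. Tph1 followed at 15.1, Sst at 6.03, Cck at 2.46, Scg5 at 1.76 and Scg2 at 1.18 FPKM. FPKM are scaled by transcript length, so these levels can be set side by side. Between neighbours in this order the WT ranges overlapped, except that Chga lay above Tph1 and Sst above Cck in all 9 libraries of each. Each of the 10 had a mean of at least 1 FPKM and entered the fit over 13976 genes.

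Between the groups, 4 members were higher in HIF2 (Scg2, Scg5, Sst and Cck) and 3 were lower (Chga, Chgb and Tph1), while Pyy, Gcg and Insl5 did not pass (limma, adjusted p under 0.05). By the same rule, 11% of all tested genes passed upwards and 11.1% downwards. The median difference over the 10 members was 0.40 on the log2 scale and over all genes it was -0.02. The members therefore did not move as 1 block, and the following account takes them by role.

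**Figure D1:**
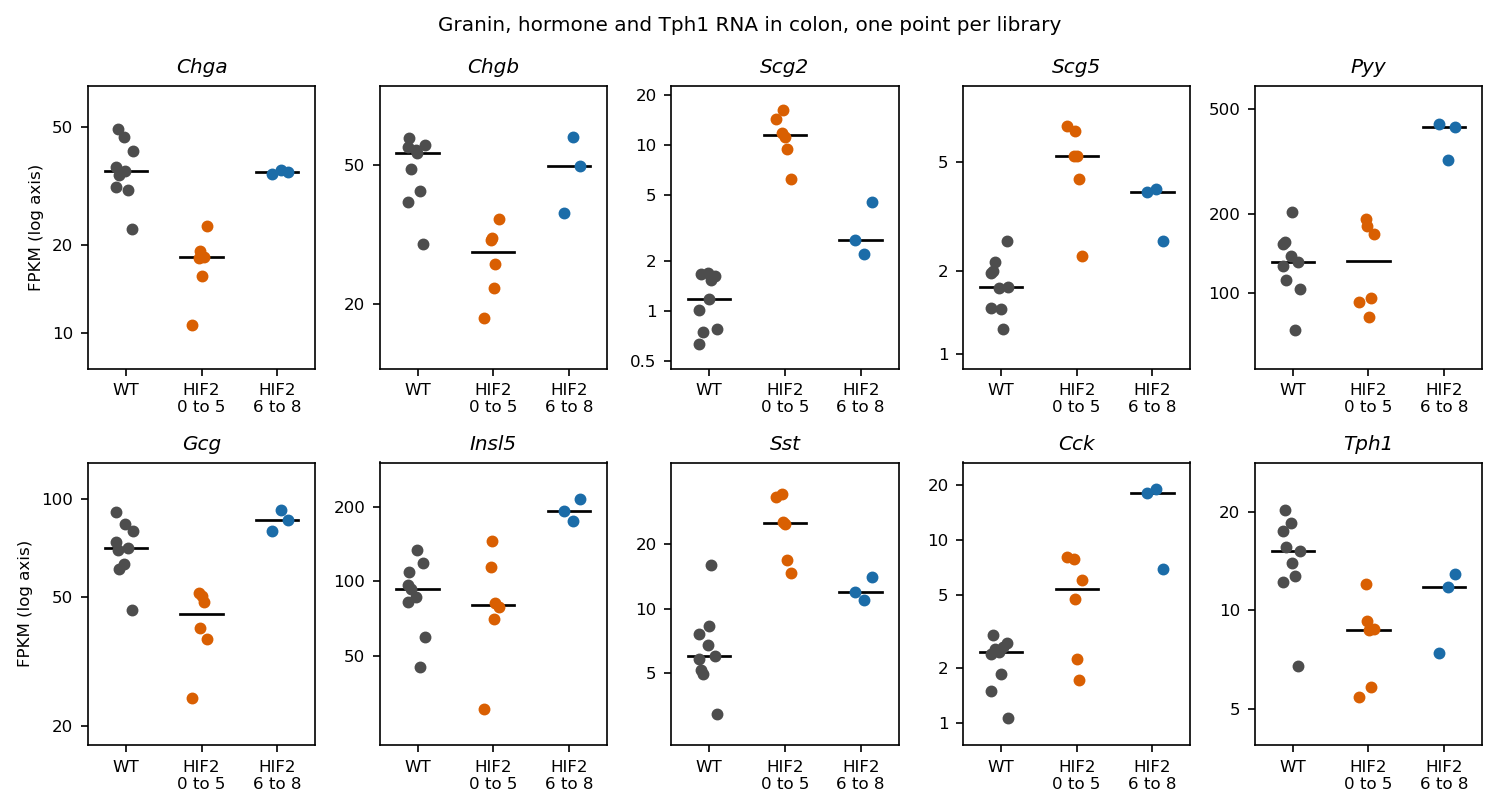
FPKM of each member on a log axis, 1 point per library, with the median as a bar, for WT (n = 9), HIF2 replicates 0 to 5 (n = 6) and HIF2 replicates 6 to 8 (n = 3). Scg2 lay above the WT range in 9 of 9 HIF2 libraries, while Pyy exceeded the WT range in the 3 libraries of HIF2 6 to 8.

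Chromogranin A and B, the acidic proteins that fill dense-core granules and serve as general markers of endocrine cells, fell together. Chga (chromosome 12, 102554969 to 102565028) ranged from 22.5 to 49.4 FPKM in WT, with a median of 35.6, and from 10.6 to 36.0 FPKM in HIF2, with a median of 19.1. HIF2 0 to 5 held the low values, 10.6 to 23.1 FPKM, and the other 3 HIF2 libraries lay in the middle of the WT range at 34.7 to 36.0 FPKM. The difference was -0.69 on the log2 scale (SE 0.21, limma adjusted p = 0.0232, exact permutation p = 0.00708). Chgb (chromosome 2, 132781278 to 132795079) ranged from 29.8 to 59.8 FPKM in WT, with a median of 54.1, and from 18.3 to 60.3 FPKM in HIF2, with a median of 31.0. It was split in the same way, with 18.3 to 35.0 FPKM in HIF2 0 to 5 and 36.5 to 60.3 FPKM in the rest. It differed by -0.56 (SE 0.19, adjusted p = 0.0446). That call was lost when any 1 of 13 libraries was left out, namely WT 1, 2 and 4 to 7 and HIF2 0 to 5 and 7, with adjusted p from 0.0503 to 0.0816.

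The other granins moved the opposite way. Secretogranin II (Scg2, chromosome 1, 79434669 to 79440120), the precursor of the neuropeptide secretoneurin, was 0.634 to 1.69 FPKM in WT, with a median of 1.18, and 2.21 to 16.2 FPKM in HIF2, with a median of 9.48. The groups did not overlap, and HIF2 0 to 5 were highest at 6.26 to 16.2 FPKM against 2.21 to 4.53 FPKM in HIF2 6 to 8. Scg2 rose by 1.95 (SE 0.29, adjusted p = 0.000201), and its exact permutation p of 4.1e-05 was the smallest this test can give. Secretogranin V (Scg5, chromosome 2, 113776362 to 113829121), the 7B2 chaperone of the prohormone convertase encoded by Pcsk2, was 1.24 to 2.59 FPKM in WT, with a median of 1.76, and 2.28 to 6.79 FPKM in HIF2, with a median of 4.34. Of the 9 HIF2 libraries, 7 lay above the WT range, and replicates 5 and 6 lay inside it. Scg5 rose by 0.94 (SE 0.16, adjusted p = 0.000485).

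Scg2, Chgb and Sst are shown by sequence because their upstream regions alone among the members held the full cyclic AMP response element, TGACGTCA, which reads the same on both strands. It lay 68 bases before the RefSeq start of Scg2, 72 before that of Chgb and 48 before that of Sst. In 250 bases before each start, 1.5% of 32851 windows in RefSeq's table held it. The 30 bases around each element are printed 5′ to 3′ on the strand of the gene (GRCm38.p6), with the element in capitals. The GENCODE M21 models of these 3 genes begin further upstream than RefSeq's.
Scg2, chr1:79440077-79440106, minus strand: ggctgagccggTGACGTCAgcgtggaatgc
Chgb, chr2:132781558-132781587, plus strand: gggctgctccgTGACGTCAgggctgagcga
Sst, chr16:23890875-23890904, minus strand: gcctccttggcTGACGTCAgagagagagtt
Of these 3 genes Scg2 and Sst rose and Chgb fell, the last by a call that was lost when any 1 of 13 libraries was left out. Any part of the element in these differences was not tested.

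The L cell hormones did not pass the test between the groups as a whole, but their levels separated the HIF2 libraries. Peptide YY (Pyy, chromosome 11, 102106676 to 102107832), which slows transit and curbs appetite, was 72.0 to 203 FPKM in WT, with a median of 131, and 80.8 to 438 FPKM in HIF2, with a median of 180. HIF2 0 to 5 lay within the WT range at 80.8 to 191 FPKM, and HIF2 6 to 8 lay above every other library at 320 to 438 FPKM. Over all 18 libraries Pyy differed by 0.53 (SE 0.32, adjusted p = 0.265). Against 8 WT libraries without replicate 3, HIF2 6 to 8 were higher by 1.505 (SE 0.18, adjusted p = 0.000226), whereas HIF2 0 to 5 differed from 9 WT libraries by -0.01 (adjusted p = 0.976). Against the 4 WT libraries that likewise lacked Ddx3y RNA, HIF2 6 to 8 were higher in Pyy by 1.34 (adjusted p = 0.00767).

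Insulin-like peptide 5 (Insl5, chromosome 4, 103017872 to 103026842), an L cell product of the distal colon that signals through the receptor Rxfp4, was 45.2 to 134 FPKM in WT, with a median of 93.4, and 30.7 to 215 FPKM in HIF2, with a median of 114. The upper end was again HIF2 6 to 8, at 175 to 215 FPKM, and the lowest library was HIF2 replicate 0. Insl5 differed by 0.27 (SE 0.31, adjusted p = 0.59) over all libraries and by 1.02 (SE 0.20, adjusted p = 0.0048) in HIF2 6 to 8. Proglucagon (Gcg, chromosome 2, 62474530 to 62483650), cut in L cells to the incretin GLP-1 and to GLP-2, was 45.6 to 91.2 FPKM in WT, with a median of 70.7, and 24.5 to 92.7 FPKM in HIF2, with a median of 50.4. It was the hormone that fell in HIF2 0 to 5, to between 24.5 and 51.3 FPKM (-0.76, SE 0.17, adjusted p = 0.00312). In HIF2 6 to 8 Gcg was 79.9 to 92.7 FPKM, and over all libraries it differed by -0.41 (SE 0.21, adjusted p = 0.195).

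Pyy is shown with the stretch before its RefSeq start because it was the L cell hormone with a hypoxia response element core, ACGTG or GCGTG on either strand, in the 250 bases searched. Such a core is common: 38.6% of the 32851 windows held one, as did windows of 6 of the 10 members (Pyy, Cck, Chga, Scg2, Sst and Tph1). None was found for Gcg or Insl5, which says only that these letters are not in those windows. The Pyy stretch covers 160 bases up to the first of its 2 RefSeq starts (GRCm38.p6), with the core, read on the other strand, in capitals.
Pyy, chr11:102107834-102107993, minus strand: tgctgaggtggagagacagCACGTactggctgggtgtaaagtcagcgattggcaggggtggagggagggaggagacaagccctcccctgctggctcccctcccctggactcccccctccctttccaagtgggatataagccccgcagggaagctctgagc
The neighbouring paralog Ppy (chromosome 11, 102099930 to 102101319), pancreatic polypeptide, was named after its values were seen. Ppy was 0.916 to 26.2 FPKM in WT, 1.62 to 19.5 FPKM in HIF2 0 to 5 and 47.1 to 110 FPKM in HIF2 6 to 8, so it separated the same 3 libraries. Its difference over all libraries was 0.86 (SE 0.62, adjusted p = 0.362).

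**Figure D2:**
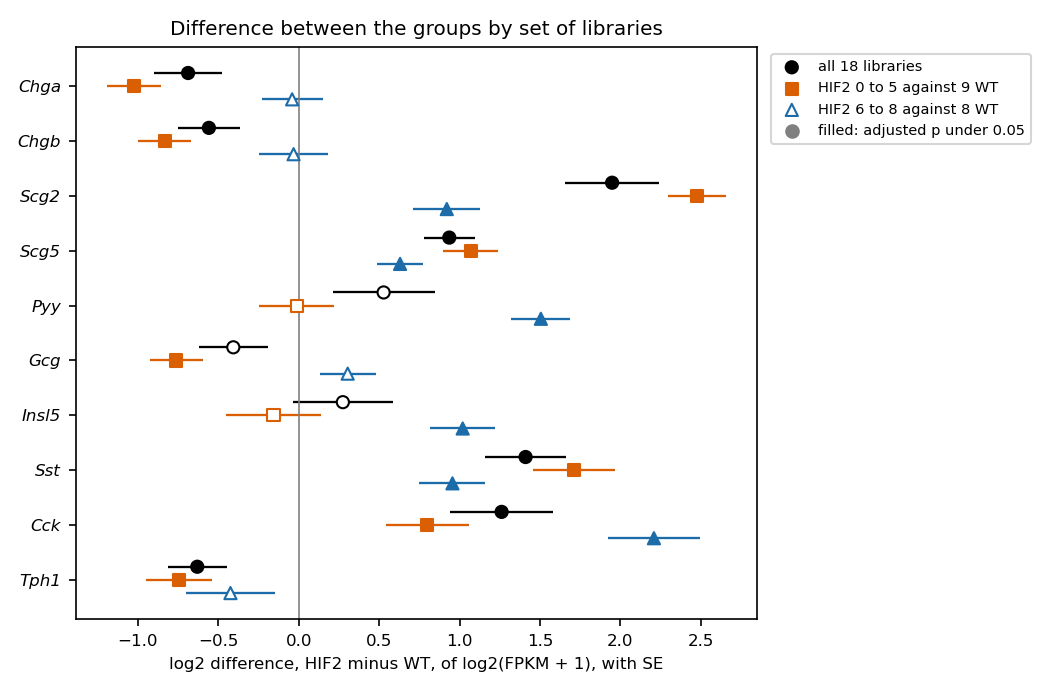
Difference of HIF2 minus WT in log2(FPKM + 1) for each member, with SE as bars, over all 18 libraries (circles), for HIF2 replicates 0 to 5 against 9 WT libraries (squares) and for HIF2 replicates 6 to 8 against 8 WT libraries (triangles); filled symbols have an adjusted p under 0.05. Chga, Chgb and Gcg are low in the squares and near or above 0 in the triangles, and Pyy and Insl5 are raised in the triangles.

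Somatostatin and cholecystokinin rose. Sst (chromosome 16, 23889573 to 23890958), the inhibitory peptide of D cells and of some enteric neurons, was 3.25 to 16 FPKM in WT, with a median of 6.03, and 11.0 to 34.3 FPKM in HIF2, with a median of 16.9. The WT library at 16 was replicate 3, the one with much smooth muscle RNA; the next highest WT value was 8.33 FPKM, below all 9 HIF2 libraries. Sst rose by 1.41 (SE 0.25, adjusted p = 0.000761), and it was 14.8 to 34.3 FPKM in HIF2 0 to 5 and 11.0 to 14.0 FPKM in HIF2 6 to 8.

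Cck (chromosome 9, 121489824 to 121495694), a hormone better known from the upper small intestine and also a neuropeptide, was 1.07 to 3.05 FPKM in WT, with a median of 2.46, and 1.73 to 18.96 FPKM in HIF2, with a median of 6.98. The pair of HIF2 libraries inside the WT range were replicates 2 and 4, at 2.25 and 1.73 FPKM, the same ones in which Slc11a2 and Egln3 did not exceed WT. The highest values, 18.08 and 18.96 FPKM, were in replicates 7 and 8. Cck rose by 1.26 (SE 0.32, adjusted p = 0.00844), by 1.65 without replicates 2 and 4 (adjusted p = 0.000167) and by 2.21 in HIF2 6 to 8 (adjusted p = 0.000331). In the exact rank test Cck did not pass (adjusted p = 0.0632). Its 120 bases before the RefSeq start are printed because the hypoxia response element core occurs there on both strands at 1 place, as the palindrome in capitals (GRCm38.p6).
Cck, chr9:121495696-121495815, minus strand: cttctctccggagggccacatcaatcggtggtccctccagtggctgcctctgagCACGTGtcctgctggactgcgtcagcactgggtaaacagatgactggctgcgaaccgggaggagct
The same 6 letters are a common E-box, and no binding data were analysed here.

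Tph1 (chromosome 7, 46644641 to 46672537), tryptophan hydroxylase 1 of enterochromaffin cells, was 6.75 to 20.2 FPKM in WT, with a median of 15.1, and 5.42 to 12.9 FPKM in HIF2, with a median of 8.77. All 9 HIF2 libraries lay below the WT median, and 7 of them were inside the WT range, whose low end was WT replicate 8. Tph1 fell by 0.63 on the log2 scale (SE 0.18, adjusted p = 0.019). The neuronal isoform gene Tph2 was listed at 0 in all 18 libraries. Mast cells can also use Tph1. Summed over 11 mast cell markers, RNA was 18.4 to 23.3 FPKM in WT. It was 16.4 to 29.0 FPKM in HIF2 0 to 5 and 22.2 to 38.4 FPKM in HIF2 6 to 8. Of 4 mast cell markers tested, 2 were higher and 1 lower in HIF2 (median 0.95), against 11% and 11.1% of all tested genes. In HIF2 6 to 8 against 8 WT libraries, 3 were higher and 1 lower (median 1.67), against 8.99% and 10.1%.

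RNA of other tissue layers moved with several of these results. All 10 tested enteric neuron markers rose, and their summed RNA was 2.86 to 12.1 FPKM in WT, 51.2 to 149 FPKM in HIF2 0 to 5 and 5.90 to 17.0 FPKM in HIF2 6 to 8. Scg2 followed that list within the groups (r = 0.92 over 18 libraries, 0.20 in WT and 0.98 in HIF2), and so did Sst (r = 0.76, 0.69 in WT and 0.92 in HIF2). With the neuron list as a covariate Scg2 still rose, by 0.61 (adjusted p = 0.0416), whereas Scg5 differed by 0.51 (adjusted p = 0.114) and Sst by 0.46 (adjusted p = 0.266). In HIF2 6 to 8 against 8 WT libraries without replicate 3, Scg2 was higher by 0.92 (adjusted p = 0.0107), Sst by 0.96 (adjusted p = 0.00783) and Scg5 by 0.63 (adjusted p = 0.0104). Summed neuron RNA was 17.0 and 16.1 FPKM in HIF2 replicates 6 and 7, above every WT library, and 5.90 FPKM in replicate 8, inside the WT range. In that comparison 2 of the 10 neuron markers were higher, against 8.99% of all tested genes, and their part in these values was not tested. Against the 4 WT libraries without Ddx3y RNA, these were 0.67 for Scg2 (adjusted p = 0.0957), 0.82 for Sst (adjusted p = 0.0265) and 0.61 for Scg5 (adjusted p = 0.0958). The insulin gene Ins1 was listed at 0 in every library and Ins2 was at most 0.946 FPKM, in WT, although exocrine pancreas markers summed to 1073 FPKM in WT replicate 2 and to at most 194 FPKM elsewhere.

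The falls of Chga, Chgb and Tph1 did not pass once RNA of tissue layers entered the fit. With smooth muscle, pan-epithelial or enteric neuron RNA as a covariate, 0 of the 10 members fell by the adjusted threshold, against 7.71%, 10.3% and 6.45% of all tested genes, so a count of 0 among 10 is near that background. Chga differed by -0.17, -0.29 and 0.17 in these fits (adjusted p = 0.611, 0.245 and 0.601), and Chgb by -0.09, -0.22 and 0.17 (adjusted p = 0.785, 0.383 and 0.608). Tph1 kept its direction at -0.40, -0.47 and -0.34 (adjusted p = 0.252, 0.117 and 0.45). Within the groups, Chga had r = -0.71 with smooth muscle, 0.73 with pan-epithelial and -0.83 with enteric neuron RNA, against -0.35, 0.33 and -0.32 for Tph1. In those same fits Pyy rose by 1.39, 1.17 and 1.78 (adjusted p = 0.0023, 0.00337 and 0.00128). Smooth muscle and enteric neuron RNA in HIF2 0 to 5 lay above every WT library. Fits with these lists therefore cannot fully part tissue RNA from group. They also draw on the difference between HIF2 0 to 5 and HIF2 6 to 8 given above. Pan-epithelial markers, summed over 12 genes, were 7186 to 10630 FPKM in WT, 7424 to 9387 FPKM in HIF2 0 to 5 and 9318 to 11870 FPKM in HIF2 6 to 8. In the main fit 5 of the 12 were lower in HIF2, against 11.1% of all tested genes. In the 10 libraries with Ddx3y RNA, 3 members rose (Scg2, Scg5 and Sst) and 4 fell (Chga, Chgb, Gcg and Tph1), with 7.71% of all tested genes higher and 3.99% lower. In the 8 libraries without it, 2 rose (Cck by 1.72 and Insl5 by 0.70) and 0 fell, with 2.77% of all tested genes higher and 4.19% lower, and Pyy differed by 1.06 (adjusted p = 0.0763).

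Posterior Hox RNA, which marks position along the gut, varied with Pyy and Insl5. Summed over 8 genes, it was 70.8 to 237 FPKM in WT, 32.9 to 192 FPKM in HIF2 0 to 5 and 157 to 285 FPKM in HIF2 6 to 8. Within the groups its r was 0.81 with Pyy and 0.76 with Insl5. With the tissue lists used as covariates above (pan-epithelial, smooth muscle and enteric neuron), Pyy had r = 0.77, -0.77 and -0.79. Insl5 had 0.60, -0.61 and -0.705 with them. With the Hox mean as a covariate, chosen after the data were seen, Pyy differed by 0.12 (adjusted p = 0.724) and Insl5 by -0.11 (adjusted p = 0.775). That fit took in all HIF2 libraries, over which neither gene passed without the covariate. It was not run on HIF2 6 to 8 alone. The 7 members called in the main fit kept their calls there, and Gcg also fell (-0.61, adjusted p = 0.0254), with 12.6% of all tested genes higher and 14.3% lower. What part the sampled segment, muscle RNA or sex has in the values of HIF2 6 to 8 was not tested.

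**Figure D3:**
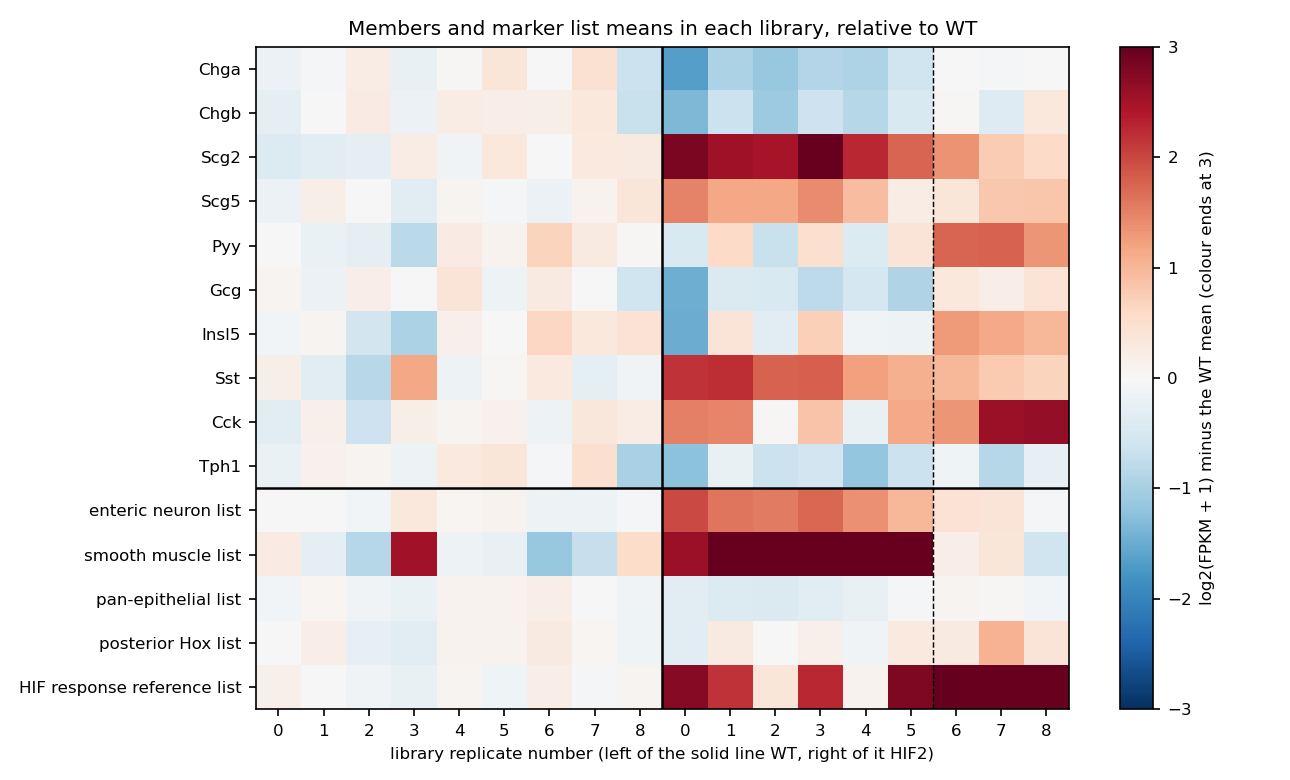
Each cell is log2(FPKM + 1) in 1 library minus the WT mean, for the 10 members (above the line) and for the mean of 5 marker lists (below it), with colour ending at 3; the solid vertical line parts WT from HIF2 and the dashed line parts HIF2 replicates 0 to 5 from 6 to 8. Scg2 and Sst are high where the enteric neuron list is high, and Cck is near WT in HIF2 replicates 2 and 4, where the HIF response list is near WT.

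Hormone RNA was next set against Chga in the same library. In WT, Chga had r = 0.94 with Tph1, 0.25 with Pyy and -0.03 with Insl5. Sst had r = 0.76 with enteric neuron RNA within the groups. The ratios may therefore compare different cells and are not amounts per endocrine cell. The ratio of Pyy to Chga FPKM was 2.36 to 5.81 in WT, with a median of 3.23, and 5.16 to 12.7 in HIF2, with a median of 8.89. It lay above the WT range in 7 of 9 HIF2 libraries, the exceptions being replicates 2 and 4. The ratio of Cck to Chga was 0.0256 to 0.122 in WT and 0.0950 to 0.758 in HIF2, above the WT range in all but replicate 4. For Sst the ratio was 0.0781 to 0.523 in WT and 0.305 to 3.12 in HIF2, above the WT range in the 6 libraries of HIF2 0 to 5 and inside it in HIF2 6 to 8.

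Relative to Chga, 4 of the 6 hormone and enzyme genes rose and 0 fell. Since Chga itself fell, 63.5% of the 13975 other genes passed upwards by the same rule and 0.651% downwards, so the count of 4 is close to that background. The differences were 2.099 for Sst (SE 0.40, adjusted p = 0.000925), 1.95 for Cck (SE 0.30, adjusted p = 0.00014), 1.22 for Pyy (SE 0.22, adjusted p = 0.000537) and 0.96 for Insl5 (SE 0.24, adjusted p = 0.00408). Gcg differed by 0.28 (SE 0.16, adjusted p = 0.12) and Tph1 by 0.06 (SE 0.19, adjusted p = 0.78), and neither passed. For Tph1 the value was 0.28 in HIF2 0 to 5 (adjusted p = 0.0992) and -0.38 in HIF2 6 to 8 (adjusted p = 0.431). In HIF2 6 to 8, where Chga lay within its WT range, Pyy was higher relative to Chga by 1.55 (adjusted p = 0.0012) and Cck by 2.25 (adjusted p = 0.000585), while Insl5 (1.06, adjusted p = 0.0541) and Sst (0.997, adjusted p = 0.0875) did not pass.

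**Figure D4:**
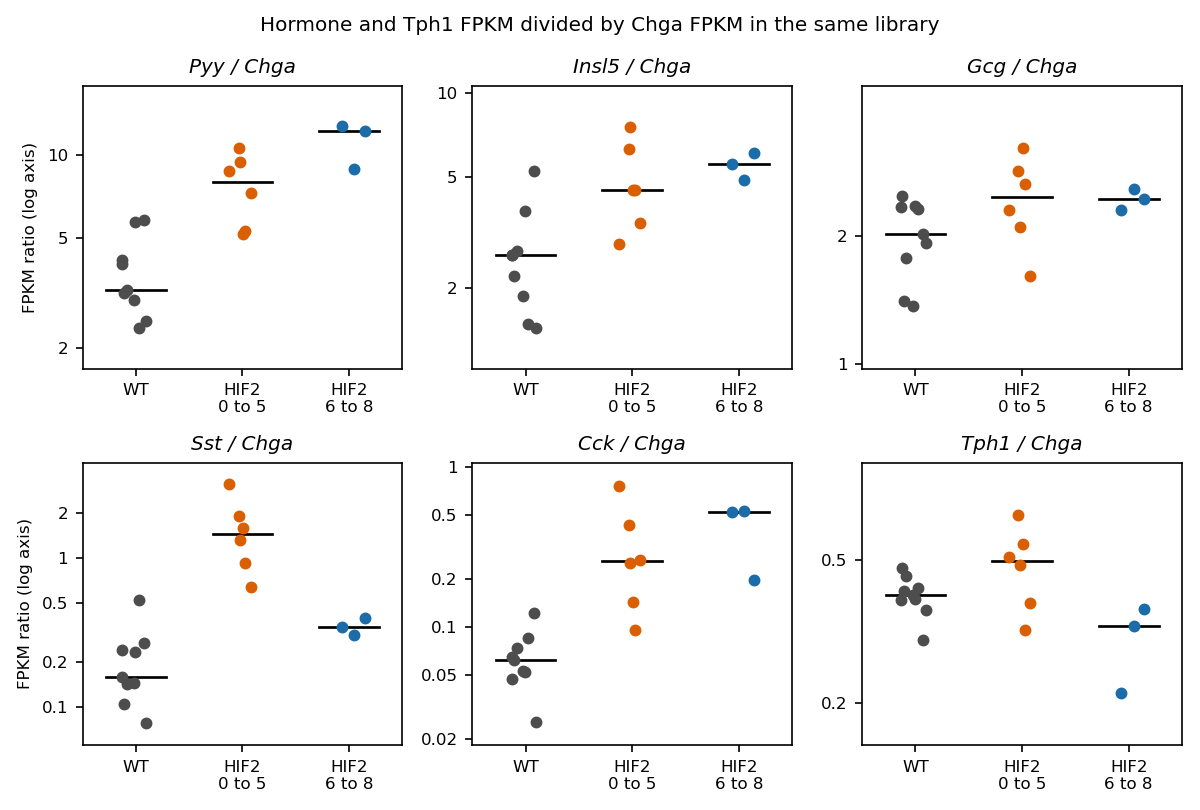
FPKM of 6 hormone and enzyme genes divided by that of Chga in the same library, on a log axis, 1 point per library with the median as a bar, for WT (n = 9), HIF2 replicates 0 to 5 (n = 6) and HIF2 replicates 6 to 8 (n = 3). The Pyy ratio was above the WT range in 7 HIF2 libraries and the Sst ratio was highest in HIF2 replicates 0 to 5.

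Within the groups the members formed sets that varied together, described here by Pearson correlation of deviations from the group means over 18 libraries. Their muscle RNA was not alike: summed smooth muscle markers ran from 42.9 to 1304 FPKM in WT and 84.0 to 3889 FPKM in HIF2. Its part in these correlations was not tested. Chga and Chgb had r = 0.93 (0.92 in WT and 0.93 in HIF2), and Pyy and Insl5 had r = 0.87, with 0.90 in WT. In WT alone (n = 9), Chga had r = 0.94 with Tph1, 0.49 with Gcg, 0.25 with Pyy and -0.03 with Insl5. Scg2 and Chga had r = -0.73 within the groups and 0.06 in WT. Cck went with the HIF response list in HIF2 (r = 0.88) and not in WT (r = -0.15). This was not particular to Cck. Pyy had r = 0.83 with that list in HIF2 and 0.74 in WT, and Insl5 had 0.48 and 0.78. In HIF2, r was 0.62 for Chga, 0.65 for Chgb, 0.39 for Gcg and 0.42 for Tph1. It was -0.61 for Scg2, -0.38 for Scg5 and -0.43 for Sst.

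The genes whose profiles were most like a member's within the groups were read by the same measure. For Pyy they were Pdk1, the HIF-responsive kinase that inhibits pyruvate dehydrogenase, with r = 0.96 (0.92 in WT), the phospholipase gene Liph with 0.96 and the carbonyl reductase gene Cbr2 with 0.95. For Insl5 they were the carbonic anhydrase gene Car2 with 0.96, the alcohol dehydrogenase gene Adh1 with 0.93 and the mitochondrial creatine kinase gene Ckmt1 with 0.93. The nearest gene to Gcg was Retsat with 0.92, to Chga Prosapip1 with 0.93, to Chgb B4galnt2 with 0.92 and to Scg2 Tspyl4 with 0.95. Those nearest to Scg5, Sst, Tph1 and Cck were Eml5, Ncapg2, Trmt12 and Adora1, with 0.87, 0.86, 0.81 and 0.88, and the last was 0.08 in WT alone.

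Other genes of the hormone pathway moved in both directions. In the main fit 11% of all tested genes were higher and 11.1% lower, the background for the counts of this and the following lists. Of 11 tested genes for other gut hormones and granins, 2 were higher and 2 lower (median 0.34), which is close to that background. Scg3, a granin that binds chromogranin A to the granule membrane, rose by 1.03 (adjusted p = 0.00211), with 0.387 to 1.33 FPKM in WT and 1.90 to 5.45 FPKM in HIF2 0 to 5. Galanin (Gal), a peptide of enteric neurons, rose by 1.28 (adjusted p = 0.0443) and was listed at 0 in each library of HIF2 6 to 8. Neurotensin (Nts) fell by 0.90 (adjusted p = 0.0286) and guanylin (Guca2a) fell by 0.60 (adjusted p = 0.0409). The calls of Gal, Guca2a and Nts were each lost when 1 of 12, 12 and 5 libraries, respectively, was left out, with adjusted p up to 0.0871.

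Among 25 tested granule processing and release genes, 7 were higher and 4 lower (median 0.26). Syt13, a synaptotagmin of secretory cells, rose by 0.90 (adjusted p = 0.000187) and carboxypeptidase E (Cpe), which trims cut prohormones, by 1.52 (adjusted p = 0.0142). The calcium sensor gene Syt7 fell by 1.03 (adjusted p = 1.15e-06), with 11.2 to 15.1 FPKM in WT and 4.43 to 7.50 FPKM in HIF2, and the granule phosphatase gene Ptprn2 fell by 0.80 (adjusted p = 0.000194). Syt7 and Ptprn2 were thus low in every HIF2 library, with no overlap between the groups. Cpe was 21.0 to 34.9 FPKM in HIF2 0 to 5 and 3.18 to 4.48 FPKM in HIF2 6 to 8, against 2.85 to 11.0 FPKM in WT, and followed the libraries with neuron and muscle RNA.

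Of 23 enteroendocrine transcription factors, 5 passed the filter on low values, of which Etv1 rose by 1.099 (adjusted p = 0.000678) and the epithelial factor Foxa1 fell by 0.41 (adjusted p = 0.0348), a call lost when any 1 of 11 libraries was left out. Of 18 sensor genes, 6 passed it: the cannabinoid receptor gene Cnr1 rose by 1.14 (adjusted p = 0.00579), the stretch-activated channel gene Piezo2, listed as Fam38b, rose by 0.52 (adjusted p = 0.00845), and the sodium-glucose transporter gene Slc5a1 fell by 1.005 on the log2 scale (adjusted p = 9.71e-06). Cnr1 was 0.988 to 3.66 FPKM in HIF2 0 to 5 and at most 0.815 FPKM in HIF2 6 to 8, and with the enteric neuron covariate it differed by -0.11 (adjusted p = 0.724). Etv1 and Piezo2 lost their calls in that fit too. There, 0 of the 5 factors and 0 of the 6 sensors were higher, against 1015 of all 13976 tested genes. In HIF2 6 to 8 against 8 WT libraries, 1 factor and 0 sensors were higher, against 8.99% of all tested genes. Slc5a1 was 72.9 to 97.4 FPKM in WT and 26.1 to 59.8 FPKM in HIF2, without overlap.

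Of 24 receptor genes, 8 passed the filter, 3 higher and 2 lower. The serotonin-gated channel gene Htr3a rose by 1.38 (adjusted p = 0.00374) and the GLP-2 receptor gene Glp2r by 0.62 (adjusted p = 0.0042). Htr3a was 1.88 to 5.12 FPKM in HIF2 0 to 5 and 0.129 to 0.646 FPKM in HIF2 6 to 8, and with the enteric neuron covariate it differed by -0.0118 (adjusted p = 0.979). Glp2r lost its call in that fit too, where 0 of the 8 receptor genes were higher, against 1015 of all 13976 tested genes. The somatostatin receptor gene Sstr1 fell by 1.70 (adjusted p = 0.00018), from 11.8 to 22.1 FPKM in WT to 1.84 to 12.0 FPKM in HIF2, and the serotonin receptor gene Htr4 fell by 1.09 (adjusted p = 0.00133). In HIF2 6 to 8, 0 of the 8 rose and 2 fell, against 8.99% and 10.1% of all tested genes. Of 8 clearance genes 0 rose and 3 fell, against 11% and 11.1% of all tested genes. Neprilysin (Mme) fell by 1.15 (adjusted p = 0.00112), monoamine oxidase A (Maoa) fell by 0.84 (adjusted p = 0.00527), and the serotonin transporter gene Slc6a4, named after its values were seen, fell by 0.76 (adjusted p = 0.0231).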

How the data were processed

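The deposited values were FPKM per gene and library, made by the authors, 1 column for each of 18 libraries. Per the submitters' processing notes the build was mm10 and the tools included Cuffdiff 2.1.1 and Cufflinks, TopHat2 2.0.9, FastQC and Bowtie2 2.1.0.0, with no roles stated. The sources used here state neither depth nor strand setting nor annotation. The low values gave no common step for whole reads: the most common ratio of low genes to WT replicate 0 was 1.035 to 1.366, so absolute depth is unknown and no counting interval was computed. FPKM sums were 686539 to 937505, and no 2 libraries correlated above 0.931.

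The members, the lists and the 2 sets of HIF2 libraries were chosen with earlier results of these data known. Genes with a mean of at least 1 FPKM over 18 libraries (13976) were tested as log2(FPKM + 1) in limma (3.58.1, under R 4.3.3), 2-sided, using a prior trended on level and Benjamini-Hochberg adjustment over all genes tested at 0.05. Fold changes on this scale understate changes of low genes. Adjusted p-values are limma's. The ratio to Chga was fitted in the same way over 13975 genes. Exact permutation tests of single members were 2-sided over all choices of 9 from 18 libraries. The procedure was tested on simulated data. Of 284 list entries, 283 matched a row. Genes were named by rule: all members, the 3 most alike tested genes of a member, and up to 2 called genes per list and direction. Not every such gene is printed. Alternatives covered an exact rank test, a replicate block, covariates, subsets, each library left out, and other pseudocounts, filters, scalings, weights and priors. RefSeq promoter windows (GRCm38.p6) were searched on both strands, and gene positions are from GENCODE M21. All members matched both. Figures were drawn with matplotlib 3.10.9.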

Additional observations from a re-analysis of the deposited data

Results flagged for a closer look

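Of 32 sets of 9 libraries (each member in each group, and each ratio to Chga), 1 held a value far from the other 8, where chance gives about 1 in 20. Tph1 was 6.75 FPKM in WT replicate 8, against 12.2 to 20.2 FPKM in the other WT libraries. Chga and Chgb were also lowest among WT in that library, at 22.5 and 29.8 FPKM. Without it Tph1 fell by 0.75 (limma adjusted p = 0.00282).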

How the results depend on the processing

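Scg2, Scg5, Sst and Cck kept their direction in every alternative that tested them, and Chga, Chgb and Tph1 in all but those named here. Over members, 329 of the alternative values kept direction and call, 46 lost the call, 12 gained it and 11 reversed. Members lower in HIF2 numbered 3 in the main test, 1 with a replicate block, which moved no direction, 1 in the exact rank test, and 0 with a smooth muscle, pan-epithelial or enteric neuron covariate, without HIF2 replicates 2 and 4, in the libraries without Y-linked RNA, and in HIF2 6 to 8 against 8 or 4 WT libraries. Over all 13976 genes, 1345 were lower with the block, 1400 in the exact rank test and 1565 without HIF2 replicates 2 and 4. With the smooth muscle, pan-epithelial and enteric neuron covariates 1078, 1433 and 901 were lower. In the libraries without Y-linked RNA 585 were, and in HIF2 6 to 8 against 8 and 4 WT libraries 1413 and 720. Counts of 0 or 1 among 10 members are near those shares. Members higher numbered 4, with 2 under a filter at 5 FPKM, which removes Scg2 and Scg5, and 2 in the libraries without Y-linked RNA. They were 3 in the exact rank test, where Cck lost its call (adjusted p = 0.0632), and 3 in the libraries with Y-linked RNA, where Cck again did (adjusted p = 0.157). With the smooth muscle and pan-epithelial covariates they were 5, and in HIF2 6 to 8 against 8 WT libraries 6. Of all 13976 genes, 1021, 1439 and 1257 were higher in these fits, 1227 in the exact rank test and 1078 in the libraries with Y-linked RNA. Same-numbered libraries did not deviate together (correlations of -0.033 to 0.112, 1 of 9 over 0.1), and the main test treated them as unpaired. Tissue content also moves these deviations, so this check cannot exclude a pairing.

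All genes higher in HIF2, 1531 in the main test, numbered 640 with the filter at 5 FPKM, 2407 without one, 1015 with the enteric neuron covariate, 387 in the libraries without Y-linked RNA and 620 in HIF2 6 to 8 against WT 5 to 8. Genes lower, 1557, numbered 901 with the neuron covariate, 585 in the libraries without Y-linked RNA, 557 in those with it and 720 in HIF2 6 to 8 against WT 5 to 8. The cause was not tested.

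Reversals with the enteric neuron covariate were Chga (0.17), Chgb (0.17), Gcg (0.41), Cnr1 (-0.11), Cpe (-0.38), Gal (-0.70) and Htr3a (-0.0118). Gcg was 0.0845 with the smooth muscle covariate, 0.30 and 0.42 in HIF2 6 to 8 against 8 and 4 WT libraries, and 0.15 in the libraries without Y-linked RNA. Insl5 was -0.16 in HIF2 0 to 5, -0.0664 in the libraries with Y-linked RNA and -0.11 with the posterior Hox covariate. In HIF2 0 to 5 Pyy was -0.0129 and Ppy -0.0489. Against 8 and 4 WT libraries, Gal in HIF2 6 to 8 was -0.16 and -0.17, and Cpe against the 4 was -0.11. Relative to Chga, Tph1 (main value 0.06) was -0.0723 with Chgb as the reference, -0.38 in HIF2 6 to 8, and -0.0268 to 0.166 with each library left out, the low end without HIF2 replicate 1; in HIF2 6 to 8 Insl5 (1.06) and Sst (0.997) lost their calls. The added alternatives (Y-linked classes, WT 5 to 8 as reference, posterior Hox, and subsets for the ratio) were chosen after seeing the data. Without read depth, the precision of members near 1 FPKM is unknown.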
